A study of Mus musculus with 19 samples.

Results

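The genes of hepatic triglyceride synthesis examined here code for 9 enzymes of the glycerol phosphate pathway, namely Gpam, Gpat3, Gpat4, Agpat2, Agpat3, Lpin1, Lpin2, Dgat1 and Dgat2. They were chosen by symbol, with earlier results of these data known, from the 55836 genes of a bulk liver RNA-seq table, and all 9 were among the 13597 genes that passed the filter on low counts. Livers came from male wild-type C57BL/6 mice that were 8 weeks old at the start and spent 8 weeks on either a control diet (CD, with 10% of its energy from fat) or a metabolic dysfunction-associated steatohepatitis diet (MD), which drew 40% of its energy from fat and 20% from fructose and held 2% cholesterol. Over the same weeks each mouse was gavaged daily with 2 mg of polyethylene particles (PE, 10 to 150 μm in diameter) or with the detergent and water vehicle alone (Veh). This gave 4 CD + Veh mice and 5 mice in each of CD + PE, MD + Veh and MD + PE, with 1 library per mouse and no transgene or deletion in any group. Mice of a group were housed together, so group and cage cannot be told apart, and the hour of tissue collection is not given in the sources used here.

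Triglyceride is built on glycerol 3-phosphate in successive acylations. A glycerol-3-phosphate acyltransferase (Gpam in the outer mitochondrial membrane, Gpat3 and Gpat4 in the endoplasmic reticulum) adds the first acyl chain, and an acylglycerophosphate acyltransferase (Agpat2, Agpat3) adds the next to give phosphatidate. A lipin (Lpin1, Lpin2) removes the phosphate to give diacylglycerol, and a diacylglycerol acyltransferase (Dgat1, Dgat2) adds the last acyl chain. In the liver the product is stored in lipid droplets or exported in very low density lipoproteins, and phosphatidate and diacylglycerol are also drawn off for phospholipid synthesis.

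Library depth was 10398820 to 15456729 counts, and every PE library (at most 12757617) was shallower than every vehicle library (at least 13406037). The column names number the vehicle libraries 39 to 47 and the PE libraries 48 to 57, and what the numbers stand for is not stated. They run group by group, by diet as well as by PE, so number and group cannot be told apart. Each of the 6 hepatocyte markers had counts in every group, and their summed level was lower in MD (45363 to 61585 CPM) than in CD (63332 to 91370 CPM). Skeletal muscle markers (8 genes) summed to 3532 CPM in MD + Veh replicate 1, with a group median of 138.6 CPM. Their range was 0.995 to 43.3 CPM in CD + Veh, and the MD + PE maximum was 2.84 CPM. Leaving out replicate 1 thus does not clear muscle markers from MD + Veh. In MD + Veh against CD + Veh 8 of 8 were called higher, beside 4.74% of all genes tested. The same markers summed to 449.6 CPM in CD + PE replicate 1. Intestinal epithelium markers (8 genes) summed to 268 CPM in MD + PE replicate 2, against at most 132 CPM in MD + Veh. Kupffer cell and macrophage markers (6 genes) reached 448.6 CPM in CD + PE replicate 2 (group median 103 CPM), and adipocyte markers 33.7 CPM and stellate cell markers 267 CPM in MD + Veh replicate 1 (group medians 19.9 and 90.4 CPM). Red blood cell markers (5 genes) reached 443 CPM in CD + PE replicate 2 (group median 127 CPM). Their median was 420 CPM in MD + Veh and 202 CPM in CD + Veh, with 0 of 5 called between these groups. Duct epithelium markers (5 genes) reached 141 CPM in MD + PE replicate 2 (group median 48.6 CPM). In MD + PE against CD + Veh, 5 of 6 hepatocyte markers were called lower, where 8.55% of all genes tested were. In that comparison 2 of 6 stellate cell and 2 of 6 endothelial markers were called higher, beside 6.02% of all genes. The part of these markers in the results below was not tested. For the 9 members, results are also given without MD + Veh replicate 1 and MD + PE replicate 2 where a call was lost. Genes outside the 9 were not read from fits without these libraries. In bulk tissue, fewer cells of a type and less RNA per cell cannot be told apart.

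Across the pathway, Gpam was lower with either treatment and lowest with both, while no other member was called for PE within a diet. A gene was called when its Benjamini-Hochberg adjusted p over all genes tested, from the quasi-likelihood test of edgeR, was below 0.05 and its absolute log2 fold change was at least 0.38. In CD + PE against CD + Veh, 1 of 9 members was called (Gpam, lower), where 2.92% of all genes tested were (1.22% higher and 1.70% lower). MD + PE against MD + Veh likewise called 1 of 9 (Gpam, lower), against 1.08% of all genes (0.147% higher and 0.934% lower). MD + Veh against CD + Veh called 5 of 9, with Gpat4 and Agpat2 higher and Gpam, Lpin1 and Dgat2 lower, against 10.4% of all genes (4.74% higher and 5.63% lower). MD + PE against CD + PE called 3 of 9, with Gpat3 and Gpat4 higher and Gpam lower, against 4.61% of all genes (1.69% higher and 2.92% lower). For both treatments together, MD + PE against CD + Veh, 5 of 9 were called, with Gpat3, Gpat4 and Agpat2 higher and Gpam and Dgat2 lower, against 14.6% of all genes (6.02% higher and 8.55% lower). MD + Veh against CD + PE called 2 of 9 (Gpat4 and Agpat2, higher), against 5.18% of all genes (2.35% higher and 2.83% lower).

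The median log2 fold change of the 9 members lay between -0.19 and 0.10 in the comparisons between groups. For the interaction of PE and diet it was 0.30 (-0.02 over all genes tested). Called members lay on both sides for MD with vehicle and with PE, and for PE only Gpam was called, below 0. The members' median was -0.19 in CD + PE against CD + Veh (0.01 over all genes tested) and 0.03 in MD + PE against MD + Veh (-0.01). It was -0.09 in MD + Veh against CD + Veh (-0.004 over all genes) and 0.08 in MD + PE against CD + PE (-0.02). MD + PE against CD + Veh gave -0.03 (-0.001), and MD + Veh against CD + PE gave 0.10 (-0.007). None of the 9 members was called by edgeR for the interaction of PE and diet, which asks whether PE changed a gene differently on the 2 diets, and DESeq2 called none either. Over all genes this test called 0.00735%, and 1 member (Agpat2, -0.38, SE 0.15) had an unadjusted p below 0.05, as did 8.77% of all genes, with an adjusted p of 0.465.

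**Figure D1:**
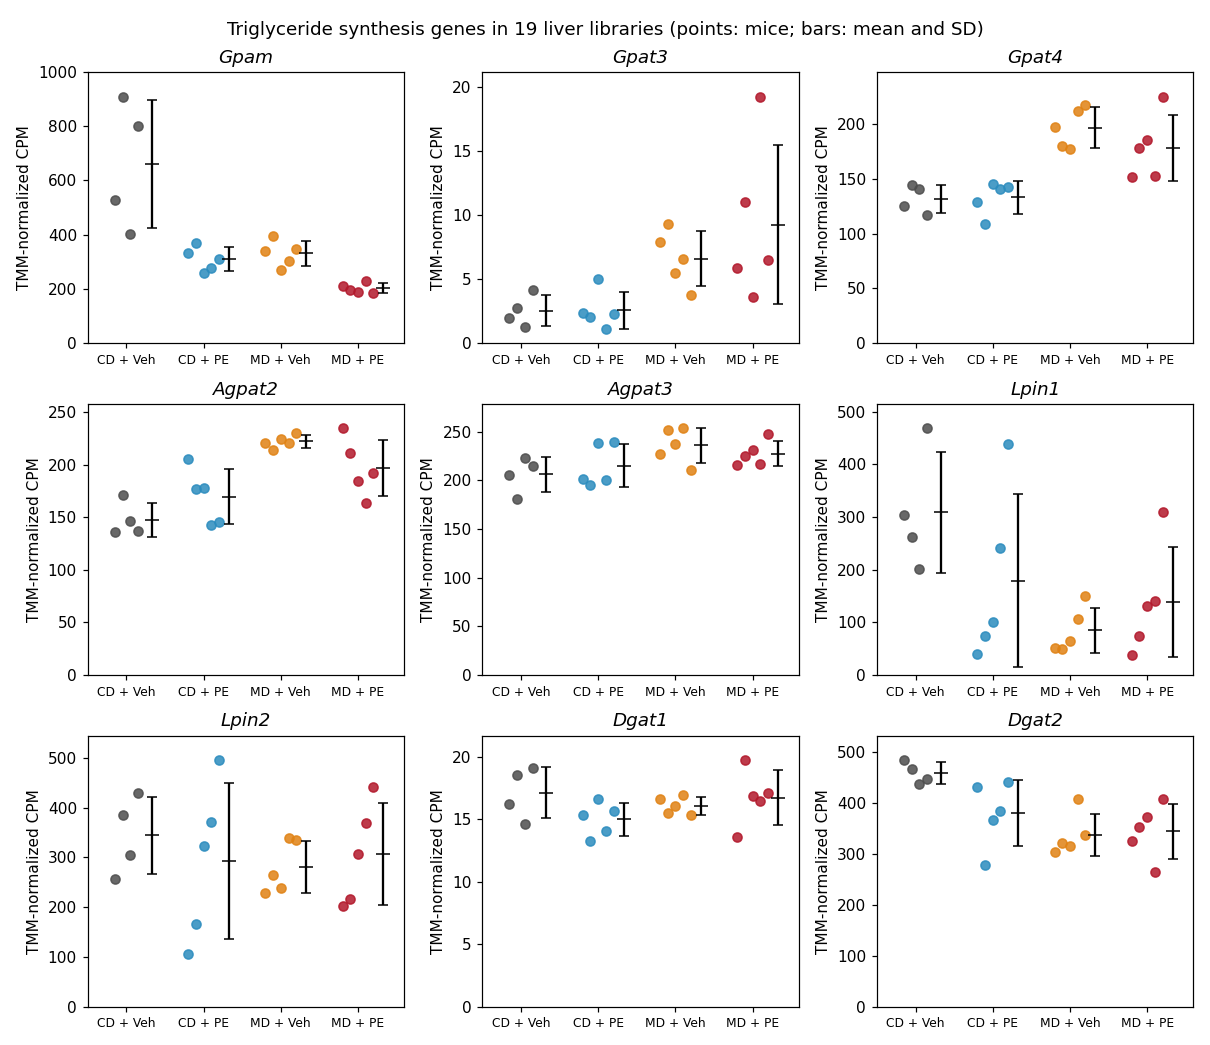
TMM-normalized CPM of each of the 9 genes (vertical axes, starting at 0) in the 19 liver libraries by group, each point 1 mouse and the bar beside it the mean with SD. Gpam was highest in CD + Veh and lowest in MD + PE, Gpat4 was higher in every MD library than in every CD library, and Lpin1, Lpin2 and Gpat3 scattered widely between mice of a group.

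Promoter sequence was matched by symbol for 6 of the 9 genes, in 9 windows of 250 bases upstream of a RefSeq start (GRCm38.p6). The windows shown are those of Gpam, the one member that was lower with PE and with MD, of Gpat3, called higher on MD with PE, of Agpat2, called higher on MD with vehicle, and of Lpin1, whose fold changes had the largest standard errors. Capitals mark matches, on either strand, to 6 motifs that were searched, the sterol regulatory element TCACNCCAC, the E-box CACGTG, the CCAAT box CCAAT, the nuclear receptor half-site AGGTCA, the GC box GGGCGG and the D-box TTATGNAA. Gpam has 2 windows, on the minus strand at chr19:55127239-55127488 and chr19:55099478-55099727. The others are Gpat3 at chr5:100845979-100846228 on the plus strand, and Agpat2 at chr2:26604418-26604667 and Lpin1 at chr12:16610967-16611216, both on the minus strand.
Gpam start 1: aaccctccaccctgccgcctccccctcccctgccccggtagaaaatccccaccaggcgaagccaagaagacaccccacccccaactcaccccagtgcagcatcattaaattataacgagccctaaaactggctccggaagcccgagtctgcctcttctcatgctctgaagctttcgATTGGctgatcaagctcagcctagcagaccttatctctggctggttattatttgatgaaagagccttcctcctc
Gpam start 2: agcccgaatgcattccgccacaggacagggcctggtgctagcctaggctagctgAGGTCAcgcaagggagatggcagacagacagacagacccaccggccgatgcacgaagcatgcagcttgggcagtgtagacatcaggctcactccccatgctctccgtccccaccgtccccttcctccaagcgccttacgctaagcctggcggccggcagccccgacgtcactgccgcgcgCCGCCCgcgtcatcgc
Gpat3: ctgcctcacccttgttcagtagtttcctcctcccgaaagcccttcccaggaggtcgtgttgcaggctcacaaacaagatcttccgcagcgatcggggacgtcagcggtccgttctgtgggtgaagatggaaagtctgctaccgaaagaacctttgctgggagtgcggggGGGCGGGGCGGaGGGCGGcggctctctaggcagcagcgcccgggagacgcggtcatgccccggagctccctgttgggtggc
Agpat2: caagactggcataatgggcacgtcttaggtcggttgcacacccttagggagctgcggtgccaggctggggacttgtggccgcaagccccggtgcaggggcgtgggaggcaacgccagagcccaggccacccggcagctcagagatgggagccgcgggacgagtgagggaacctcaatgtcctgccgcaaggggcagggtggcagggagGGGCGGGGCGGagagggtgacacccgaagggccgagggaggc
Lpin1: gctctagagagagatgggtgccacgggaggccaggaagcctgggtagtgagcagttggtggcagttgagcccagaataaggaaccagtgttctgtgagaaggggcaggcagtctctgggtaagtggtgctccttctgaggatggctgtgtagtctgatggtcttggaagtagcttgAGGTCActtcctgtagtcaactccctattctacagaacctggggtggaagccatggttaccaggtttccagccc

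The first Gpam window held 1 CCAAT box, inverted, at -74 from the start, a motif found in 33.8% of all 32851 windows of the table. Its second window held 1 AGGTCA half-site at -196, as did 14.0% of all windows, and 1 GC box at -16, as did 32.7%. Gpat3 had 3 GC boxes between -81 and -69, the first overlapping the next, and Agpat2 had a pair that overlap, at -42 and -37. The single AGGTCA match of Lpin1 lay at -74. TCACNCCAC (1.05% of all windows) and TTATGNAA (3.07%) had no match in any of the 9 windows, and CACGTG (6.02%) matched once, in a window of Lpin2. These are matches of letters only, and the gene-level counts do not say which start a liver used.

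Gpam, the mitochondrial enzyme of the first acylation, lies at chr19:55055700-55115784 (minus strand, GRCm39, GENCODE vM39). Its normalized level was 529.7, 909, 403 and 800.0 CPM in the 4 CD + Veh mice, taken in the order of replicates. CD + PE gave 333, 371, 258, 277 and 310.4 CPM, MD + Veh 341, 395, 270.2, 302 and 346 CPM, and MD + PE 209, 198, 188, 229 and 184 CPM. Every CD + Veh library was above every other library and every MD + PE library below every other, while CD + PE and MD + Veh overlapped.

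On the control diet PE went with a log2 fold change of -1.09 in Gpam (SE 0.18, adjusted p = 0.00238), a level 53.1% lower. On MD the PE change was -0.71 (SE 0.17, adjusted p = 0.0403), a level 39.04% lower. MD against CD went with a change in Gpam of -0.997 with vehicle (SE 0.18, adjusted p = 0.000868) and of -0.62 with PE (SE 0.17, adjusted p = 0.0321). MD + PE against CD + Veh gave -1.71 (SE 0.18, adjusted p = 1.64e-06). Between MD + Veh and CD + PE the difference was 0.09 (95% interval -0.26 to 0.45, adjusted p = 0.768). The interaction was 0.38 (SE 0.25, 95% interval -0.14 to 0.89, adjusted p = 0.696), so a difference of the PE change between diets was not resolved.

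Each of the 3 calls against CD + Veh remained with any 1 library left out. The PE call on MD was lost in 11 of 19 such fits, without CD + Veh replicate 1, MD + Veh replicates 1, 2 or 5, CD + PE replicates 4 or 5, or any 1 MD + PE library, with log2 fold changes of -0.76 to -0.64 and adjusted p up to 0.112. MD + PE against CD + PE lost the call without CD + PE replicates 1, 2 or 5 or MD + PE replicates 2, 3 or 5 (adjusted p up to 0.075). Without both the muscle-gene and the intestine-gene library, these 2 calls were also lost (-0.69, adjusted p = 0.161, and -0.60, adjusted p = 0.0802). With a term for library numbers above 45, which is estimated within MD + Veh alone, the PE changes were -1.04 (adjusted p = 0.146) and -0.68 (adjusted p = 0.313). In MD + PE against CD + Veh that term left Gpam called (-1.66) and ended the calls of Gpat3 (2.42, adjusted p = 0.0643), Gpat4 (0.22, adjusted p = 0.508), Agpat2 (0.38, adjusted p = 0.235) and Dgat2 (-0.66, adjusted p = 0.0624). In MD + Veh against CD + PE it ended that of Agpat2 (0.41, adjusted p = 0.166).

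Gpat4, an enzyme of the same step in the endoplasmic reticulum (chr8:23661281-23699042, minus strand), was higher on MD. The mice of CD + Veh gave 125, 144, 140.4 and 116 CPM and those of CD + PE 129, 109, 145, 140.5 and 142 CPM. In MD + Veh the values were 197, 179, 177, 212 and 218 CPM, and in MD + PE 151, 178, 185, 152 and 225 CPM. All 10 MD libraries were above all 9 CD libraries. The log2 fold change of MD against CD was 0.58 with vehicle (SE 0.11, adjusted p = 0.00189) and 0.42 with PE (SE 0.11, adjusted p = 0.0211), the second lost without MD + PE replicate 5 (0.33, adjusted p = 0.0621), by size without CD + PE replicate 2 (0.36), and with only those 2 groups fitted (adjusted p = 0.0533). MD + PE exceeded CD + Veh by 0.44 (SE 0.11, adjusted p = 0.00993), a size of 0.34 without MD + PE replicate 5. The difference with PE was 0.02 on CD (95% interval -0.22 to 0.25) and -0.14 on MD (-0.36 to 0.08), neither past the test.

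Gpat3, also an endoplasmic reticulum enzyme of this step (chr5:100993579-101046968, plus strand), was a low transcript, read from 11 to 280 counts per library. CD + Veh gave 1.99, 2.72, 1.27 and 4.11 CPM and CD + PE 2.32, 2.02, 5.03, 1.105 and 2.27 CPM. MD + Veh gave 7.86, 9.29, 5.46, 6.58 and 3.79 CPM and MD + PE 5.85, 11.03, 3.56, 19.2 and 6.47 CPM. The MD libraries ran higher, with ranges that overlapped those of CD, and MD + PE replicate 4 was the highest of all. MD + PE was higher than CD + PE by 1.85 on the log2 scale (SE 0.44, adjusted p = 0.0146) and than CD + Veh by 1.88 (SE 0.47, adjusted p = 0.00732), and both calls remained with any 1 library left out. For MD + Veh against CD + Veh the value was 1.39 (SE 0.46, adjusted p = 0.0512), just outside the threshold, and DESeq2 gave an adjusted p of 0.0158. It was also called without CD + Veh replicate 4, MD + Veh replicate 5, CD + PE replicates 2, 3 or 4 or MD + PE replicates 3 or 4 (adjusted p down to 0.0268).

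Transcripts of the 3 enzymes of this step were weighed against each other on CPM per kb of the longest annotated transcript. Gpam made up 68.0 to 82.9% of the sum in the CD + Veh libraries (median 78.8%) and 55.8 to 71.3% in those of CD + PE (median 61.5%). On MD its share was 50.3 to 60.2% with vehicle (median 53.7%) and 36.9 to 49.2% with PE (median 42.8%). The share of Gpat4 had medians of 20.5% (vehicle) and 37.4% (PE) on CD and of 44.9% (vehicle) and 51.3% (PE) on MD, and that of Gpat3 stayed at or below 9.85% in every library. In MD + PE the share of Gpat4 was above that of Gpam in 3 of 5 libraries and below it in replicates 1 and 4, where Gpam made up 49.2 and 47.9%. With the median transcript length in place of the longest, the Gpam medians were 81.6, 65.6, 58.1 and 47.2% in the same order of groups, and that of Gpat4 in MD + PE was 47.4%. With that length the mean share in MD + PE was 48.2% for Gpam and 47.3% for Gpat4, so the order of the pair there was not settled. The summed level of the step had a mean of 109.9 ± 30.9 CPM per kb with vehicle (SD, n = 4) and 64.4 ± 3.45 with PE (n = 5) on CD, and of 79.5 ± 7.10 with vehicle (n = 5) and 60.3 ± 3.81 with PE (n = 5) on MD.

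**Figure D2:**
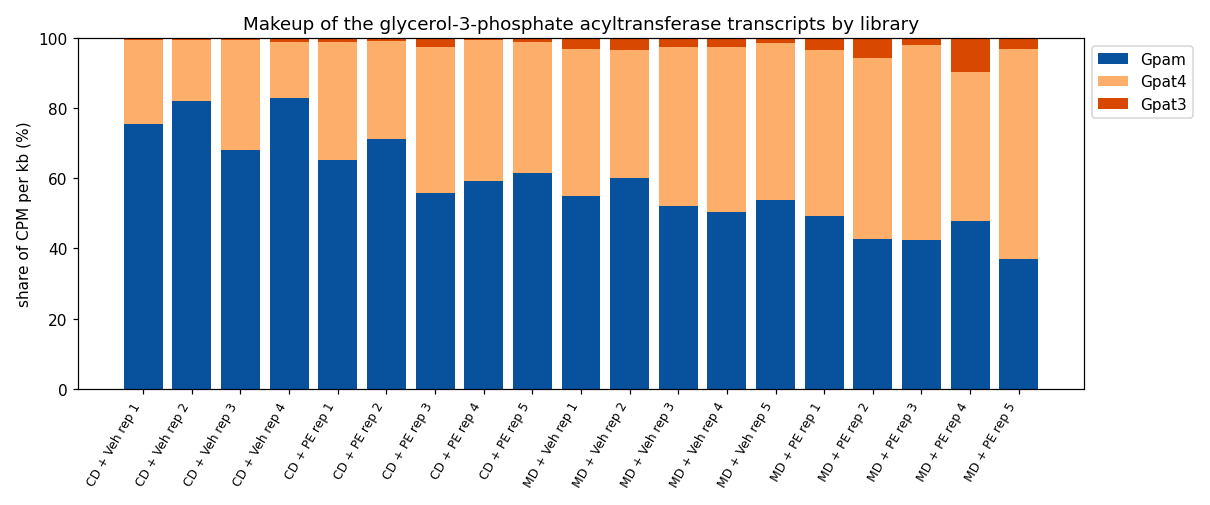
Share of CPM per kb (vertical axis, percent) that Gpam, Gpat4 and Gpat3 each made up of their sum, 1 stacked bar per library. The Gpam part was 68.0 to 82.9% in CD + Veh and 36.9 to 49.2% in MD + PE, with MD + Veh between these ranges at 50.3 to 60.2% and CD + PE, at 55.8 to 71.3%, overlapping that of CD + Veh.

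Agpat2, which makes phosphatidate and whose loss in people causes a congenital lipodystrophy, lies at chr2:26483061-26494637 (minus strand) and was called higher on MD with vehicle. Its level was 136, 171, 146 and 137 CPM in CD + Veh and 221, 214, 225, 221 and 230.3 CPM in MD + Veh, the tightest group. CD + PE gave 205, 177, 178, 143 and 145 CPM, and MD + PE 235, 211, 185, 164 and 192 CPM. The MD + Veh libraries were above all CD libraries, whereas the MD + PE range overlapped every other group. With vehicle, Agpat2 was higher on MD by 0.59 (SE 0.11, adjusted p = 0.00122). MD + PE exceeded CD + Veh by 0.42 (SE 0.11, adjusted p = 0.0104), a size of 0.35 without MD + PE replicate 1. Between the PE groups the difference was 0.22 (95% interval 0.00 to 0.43, adjusted p = 0.229). MD + Veh exceeded CD + PE by 0.39 (SE 0.10, adjusted p = 0.0251), a call lost without MD + Veh replicate 3 (adjusted p = 0.0548), CD + PE replicate 4 (adjusted p = 0.0683) or CD + PE replicate 5 (adjusted p = 0.0682), and by size without MD + Veh replicate 5 (0.37). Without both the muscle-gene and the intestine-gene library its adjusted p was 0.0531.

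Agpat3 acts at the same step and, among other chains, uses polyunsaturated acyl groups (chr10:78105003-78208987, minus strand). It varied little, from 181 to 223 CPM (CD + Veh), 195 to 239.8 CPM (CD + PE), 211 to 254 CPM (MD + Veh) and 216 to 248 CPM (MD + PE). The groups overlapped in every pair and no comparison called it. Its largest difference, MD + Veh against CD + Veh, was 0.19 (95% interval 0.02 to 0.37, adjusted p = 0.125). Agpat2 made up a median of 66.8% (vehicle) and 69.4% (PE) of the summed CPM per kb of the pair on CD, and 74.3% (vehicle) and 71.0% (PE) on MD.

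**Figure D3:**
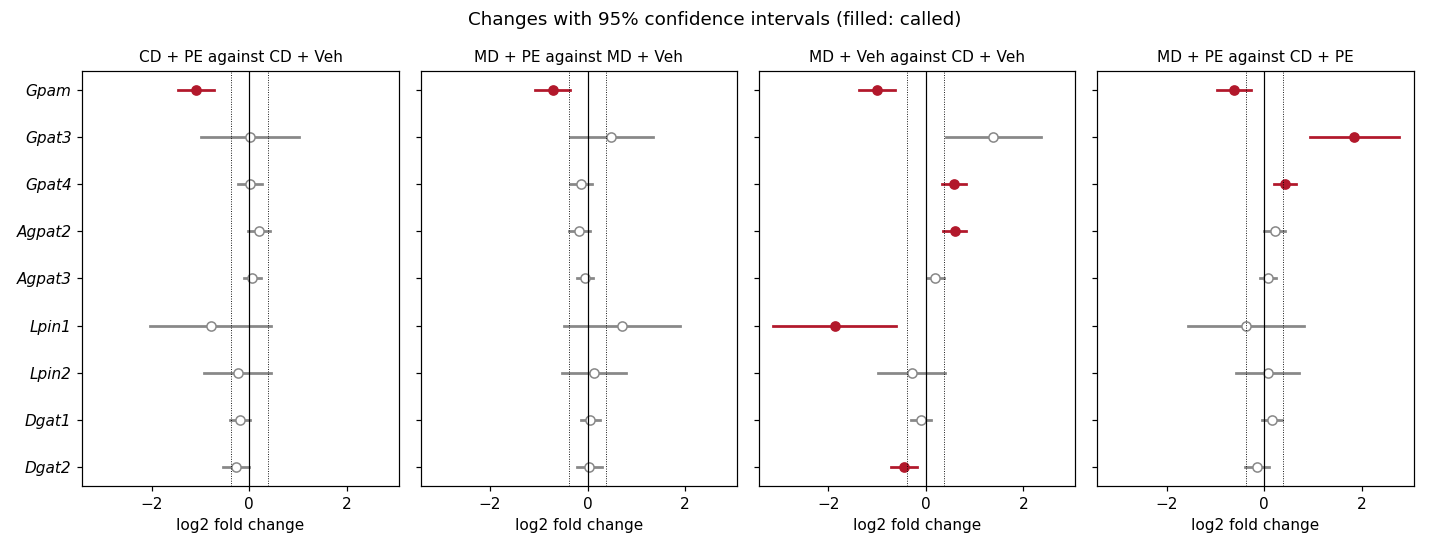
Log2 fold changes (horizontal axes) of the 9 genes with 95% confidence intervals in 4 comparisons, 1 panel each, filled red points being called and dotted lines standing at -0.38 and 0.38. Gpam lay below 0 in all 4 panels (-1.09, -0.71, -0.997 and -0.62 from left to right), and the lipins and Gpat3 had the widest intervals.

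Lpin1, a phosphatidate phosphatase that also acts as a transcriptional coactivator (chr12:16584818-16703913, minus strand), had the largest standard errors of the 9 genes. CD + Veh gave 303, 261, 202 and 468 CPM and MD + Veh 51.97, 49.5, 65.1, 106 and 151 CPM, with no overlap. In CD + PE the values were 39.4, 74.3, 101, 240.4 and 438 CPM, and in MD + PE 37.5, 73.3, 131, 139.5 and 310.1 CPM. In both PE groups replicate 1 was lowest and replicate 5 highest, and both groups reached into the ranges of CD + Veh and MD + Veh. MD + Veh was lower than CD + Veh by -1.87 (SE 0.60, adjusted p = 0.0442). This call was lost in 11 of 19 fits with 1 library left out, without any 1 CD + Veh library, MD + Veh replicates 1, 2, 3 or 4, CD + PE replicate 4, or MD + PE replicates 3 or 4 (adjusted p up to 0.135). It was also lost with robust dispersion (adjusted p = 0.0769) and without both the muscle-gene and the intestine-gene library (-1.72, adjusted p = 0.0971). The remaining comparisons were not called, among them PE on CD (-0.79, 95% interval -2.03 to 0.45) and PE on MD (0.71, -0.48 to 1.90).

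Lpin2, the other main phosphatidate phosphatase of the liver (chr17:71489555-71556909, plus strand), was not called in any comparison. The CD + Veh mice had 257, 385, 304 and 429.9 CPM and the CD + PE mice 107, 166, 323, 370.5 and 495 CPM. On MD the values were 228, 264, 238, 339 and 334 CPM with vehicle and 201, 216, 306, 369 and 442 CPM with PE. As with Lpin1, replicate 1 was lowest and replicate 5 highest in both PE groups. Within groups the pair varied together, with a Pearson r of 0.89 between their deviations from group means over 19 libraries, which share their depth and scaling. Lpin1 made up a median of 43.5% (vehicle) and 28.5% (PE) of the pair's CPM per kb on CD, and 19.6% (vehicle) and 25.2% (PE) on MD.

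Both lipins moved with clock genes, which follow the hour of the day in liver. The clock score of a library was the mean log2 CPM of the activators Bmal1, Clock and Npas2 minus that of Dbp, Tef, Per1, Per2, Per3, Nr1d1, Nr1d2 and Ciart, which are driven by them. On CD it ran from -4.84 to -3.65 with vehicle and from -3.29 to 0.53 with PE, and on MD from -2.35 to 0.00 with vehicle and from -2.16 to -0.17 with PE, so every CD + Veh library was below every other library. Deviations from group means correlated with those of the score at r = -0.74 for Lpin1 (Spearman -0.83), -0.63 for Lpin2 (-0.71), -0.65 for Dgat2 (-0.61) and -0.64 for Gpat4 (-0.56), over 19 libraries. For Gpam r was 0.10 (Spearman 0.00). With the score as a covariate, the Lpin1 difference of MD + Veh from CD + Veh became 0.26 (adjusted p = 0.869), and that of Agpat2 was 0.39 (adjusted p = 0.196). In MD + PE against CD + Veh the same term ended the calls of Gpat3 (1.61, adjusted p = 0.189) and Agpat2 (0.22, adjusted p = 0.395). It also ended the Agpat2 call of MD + Veh against CD + PE (0.33, adjusted p = 0.0633). Since the score separates CD + Veh from the other groups, clock state and group cannot be told apart in the comparisons against CD + Veh.

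**Figure D4:**
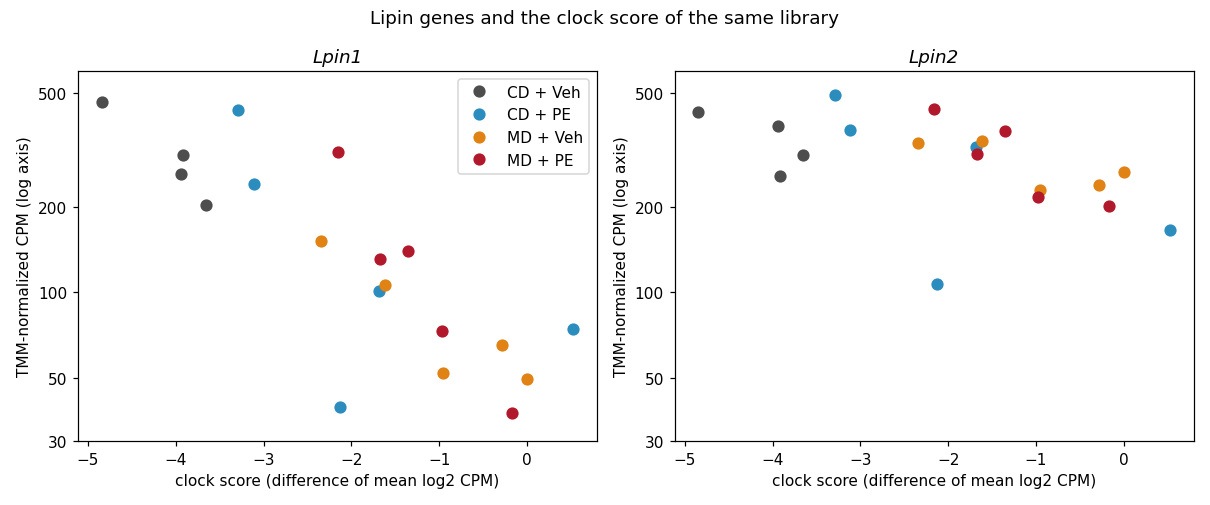
TMM-normalized CPM of Lpin1 and Lpin2 (vertical axes, log scale) against the clock score of the same library (horizontal axes, difference of mean log2 CPM), each point 1 mouse and each colour 1 group. Libraries with a higher score tended to have lower levels of both genes, and the 4 CD + Veh libraries stood together at scores of -4.84 to -3.65.

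Dgat2, an acyltransferase linked to the storage of newly made fatty acids in liver, lies at chr7:98802491-98831991 (minus strand) and was the most abundant member per kb in every group's mean. CD + Veh gave 484, 466, 436 and 446 CPM, CD + PE 432, 278, 366, 384 and 439.8 CPM, MD + Veh 303, 320.2, 315, 407 and 337 CPM, and MD + PE 326, 352, 372, 264 and 408 CPM. Both MD groups were below CD + Veh without overlap, and CD + PE reached into both ranges. MD with vehicle went with a change of -0.44 in Dgat2 (SE 0.13, adjusted p = 0.0255), and MD + PE against CD + Veh with -0.41 (SE 0.13, adjusted p = 0.0282). The difference with PE was -0.27 on CD (95% interval -0.54 to -0.001, adjusted p = 0.282) and 0.03 on MD (-0.22 to 0.29, adjusted p = 0.931).

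The Dgat2 calls were near the threshold. MD + Veh against CD + Veh was lost without CD + Veh replicates 1, 2 or 4 or MD + Veh replicates 1, 2 or 3 (adjusted p up to 0.0741), and MD + PE against CD + Veh without CD + Veh replicates 1, 2 or 4 or MD + PE replicates 1 or 4 (adjusted p up to 0.0853). With the clock score as a covariate both were near 0, at -0.05 (adjusted p = 0.915) and -0.05 (adjusted p = 0.887). Without both the muscle-gene and the intestine-gene library the adjusted p were 0.0752 and 0.0555.

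Dgat1, the structurally unrelated enzyme of the same step (chr15:76385083-76396476, minus strand), was not called in any comparison. It ranged from 14.6 to 19.1 CPM with vehicle and 13.2 to 16.6 CPM with PE on CD, and from 15.3 to 16.9 CPM with vehicle and 13.6 to 19.7 CPM with PE on MD, and all groups overlapped. Its largest difference, CD + PE against CD + Veh, was -0.19 (95% interval -0.40 to 0.02, adjusted p = 0.340). Dgat2 made up 94.5 to 97.0% of the pair's summed CPM per kb over all libraries. Exonic bases of Dgat1 lie within the span of Hsf1 on the opposite strand, as do some of Agpat2 within Egfl7 and of Lpin1 within Ntsr2. Whether exons of both genes overlap was not examined. Where they do, assignment of reads depends on strand. The study's methods call the libraries stranded with the type detected by the software, while the labels do not mention strand. The spans of Gm56820 over exonic bases of Agpat3 and of Gm42987 over those of Gpat3 lie on the same strand. Strand would not resolve an overlap of exons there.

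Ranked by mean CPM per kb, CD + Veh livers had Dgat2 (159 ± 7.37, SD, n = 4) above Gpam (86.3 ± 30.6), Agpat2 (58.8 ± 6.56), Lpin2 (54.5 ± 12.3), Lpin1 (43.5 ± 16.1), Agpat3 (26.9 ± 2.38), Gpat4 (22.9 ± 2.24), Dgat1 (5.55 ± 0.67) and Gpat3 (0.81 ± 0.39). Gpam, Agpat2, Lpin2 and Lpin1 lay within 1 SD of a neighbour. In MD + PE livers the order was Dgat2 (119.9 ± 18.8, SD, n = 5), Agpat2 (78.6 ± 10.7), Lpin2 (48.6 ± 16.2), Gpat4 (31.0 ± 5.23), Agpat3 (29.7 ± 1.69), Gpam (26.3 ± 2.39), Lpin1 (19.5 ± 14.8), Dgat1 (5.42 ± 0.71) and Gpat3 (2.96 ± 1.99). Gpam thus stood next to Dgat2 in CD + Veh, and in MD + PE it lay among Gpat4 and Agpat3, whose order depends on the transcript length used. There Agpat3 and Gpam both lay within the SD of Gpat4. Gpat4, Agpat3, Gpam and Dgat1 all lay within the SD of Lpin1.

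Other genes of the same steps were read from a list of 9, of which 8 were tested. The 8 gave 0 calls by edgeR and 0 by DESeq2 for PE on CD, with 2 at an unadjusted p below 0.05, and 0 by all 3 measures for PE on MD. MD + Veh against CD + Veh called 2 of the 8 (10.4% of all genes). It called Mogat1, an acyltransferase that makes diacylglycerol from monoacylglycerol, higher by 3.14 (SE 0.52, adjusted p = 0.000506), and Lpin3 lower by -0.69 (SE 0.17, adjusted p = 0.0117). Mogat1 was a rare transcript in both groups, at 0.0671 to 0.435 CPM in CD + Veh and 1.24 to 4.83 CPM in MD + Veh. Between the PE groups it was higher on MD by 1.91 (SE 0.47, adjusted p = 0.0189).

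Of 13 genes that supply glycerol 3-phosphate and acyl-CoA, 3 rose and 2 fell in MD + Veh against CD + Veh, where 10.4% of all genes tested were called. Cd36, a fatty acid transporter, rose by 2.28 (SE 0.35, adjusted p = 0.000286), from 8.86 to 32.7 CPM in CD + Veh to 66.3 to 136 CPM in MD + Veh. Gpd1, which makes glycerol 3-phosphate, rose by 0.96, and Acsl1, an acyl-CoA synthetase, by 0.50 (adjusted p = 1.58e-05 and 0.0179). The acyl-CoA synthetases Acsl5 and Acsl4 fell, with changes of -0.83 and -0.72 (adjusted p = 6.28e-05 and 0.00994).

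Acsl5, which loads fatty acids onto coenzyme A, was called lower in the same 4 comparisons between neighbouring groups as Gpam. Its level was 492 to 779 CPM with vehicle and 327 to 387 CPM with PE on CD, and 301 to 397 CPM with vehicle and 187 to 234 CPM with PE on MD. PE went with -0.75 on CD (SE 0.11, adjusted p = 0.0012) and -0.71 on MD (SE 0.11, adjusted p = 0.00166), and MD with -0.79 between the PE groups (SE 0.11, adjusted p = 8.46e-05). Of the 13, edgeR called 3 for PE on CD (2.92% of all genes) and 2 for PE on MD (1.08%). DESeq2 called 5 on CD and 2 on MD, and 7 and 2 had an unadjusted p below 0.05 by edgeR. Apart from Acsl5, Gpd1 was higher (0.58, adjusted p = 0.00695) and Acsl4 lower (-0.66, adjusted p = 0.043) with PE on CD. With PE on MD, Dbi, an acyl-CoA binding protein, was lower (-0.56, adjusted p = 0.001). Gpd1, Cd36, Acsl5 and Dbi were the 4 genes of this list called between the PE groups, against 4.61% of all genes.

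Among 18 genes that use phosphatidate or diacylglycerol in other ways, 2 rose and 3 fell in MD + Veh against CD + Veh, again beside 10.4% of all genes. Chpt1, a choline phosphotransferase, rose by 1.04 (SE 0.09, adjusted p = 7.73e-07) and Selenoi, an ethanolamine phosphotransferase, by 0.52 (adjusted p = 0.00286). Dgkq, a diacylglycerol kinase, Plpp2, a lipid phosphate phosphatase, and Pemt, which makes phosphatidylcholine from phosphatidylethanolamine, fell with changes of -0.62, -0.56 and -0.47 (adjusted p = 0.000205, 0.0438 and 0.000692). Of the 18, 2 were called for PE on CD (2.92% of all genes). With PE on CD, Chpt1 was higher (0.50, adjusted p = 0.00526) and Cds2, which turns phosphatidate into CDP-diacylglycerol, was lower (-0.51, adjusted p = 0.00107). For PE on MD edgeR called 1 gene of this list (1.08% of all genes) and DESeq2 called 0, with 7 at an unadjusted p below 0.05. The gene was Pcyt2, the regulatory enzyme of phosphatidylethanolamine synthesis (-0.38, adjusted p = 0.0156). Between the PE groups MD went with higher Chpt1 (0.76, adjusted p = 1.33e-05) and lower Pemt (-0.58), Pcyt2 (-0.48) and Dgkq (-0.40, adjusted p at most 0.0114), 4 calls where DESeq2 gave 3 and 4.61% of all genes were called.

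**Figure D5:**
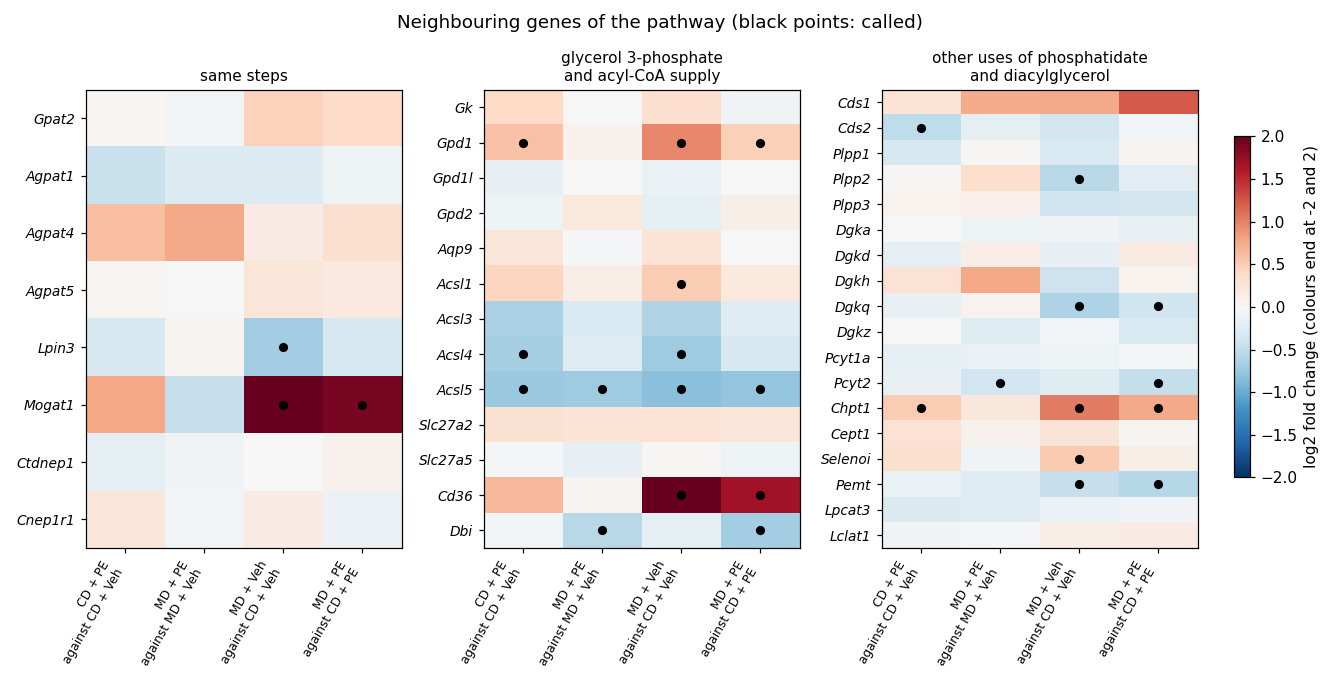
Log2 fold change (colour, with the scale ending at -2 and 2) of the tested genes of 3 lists around triglyceride synthesis, in rows, over 4 comparisons, in columns, with black points on called genes. Mogat1 and Cd36 were called higher on MD with vehicle (3.14 and 2.28) and with PE, and Acsl5 was called lower in all 4 columns.

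Of 9 transcriptional regulators of the pathway, edgeR and DESeq2 called 0 for PE on either diet, with 1 at an unadjusted p below 0.05 on CD and 0 on MD. MD + Veh against CD + Veh called Pparg, a nuclear receptor of lipid storage, higher by 0.91 (SE 0.27, adjusted p = 0.0316). There edgeR called 1 of the 9 and DESeq2 2, beside 10.4% of all genes by edgeR. Srebf1, whose product drives Gpam among other lipogenic genes, differed by -0.51 for PE on CD (adjusted p = 0.218), -0.30 for PE on MD (adjusted p = 0.535) and 0.29 for MD with vehicle (adjusted p = 0.409). It was higher in MD + Veh than in CD + PE by 0.80 (adjusted p = 0.0229), where Ppargc1a, a coactivator, was lower by -0.87 (adjusted p = 0.0412).

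The genes whose levels followed each member most closely within groups were found by the Pearson correlation of deviations from group means over the 19 libraries, which share depth and scaling. For Gpam they were Dlg5 (r = 0.81, and 0.77 without CD + Veh replicate 3, the library farthest from its group) and Acss2 (r = 0.80, and 0.73). For Lpin1 they were Mat2a (0.90) and Klf13 (0.90), and for Lpin2 Ip6k2 (0.93) and Nfkbia (0.93). Dgat2 was followed most closely by Apeh (0.90) and Sirt2 (0.88), and Dgat1 by Tlr5 (0.87) and Appl2 (0.85). Gpat4 paired with Slc1a2 (0.85) and Slc25a51 (0.84), Gpat3 with Lgals1 (0.87) and Spg21 (0.84), Agpat2 with Smpd4 (0.86) and Bhmt (0.85), and Agpat3 with Arhgef3 (0.84) and Wbp1l (0.83). Among the members themselves, Dgat2 and Gpat4 had an r of 0.70 and Agpat2 and Lpin1 an r of -0.71.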

How the data were processed

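The data are bulk RNA-seq of the livers of 19 mice, 1 library each, and groups were taken from the sample titles. The authors trimmed reads with fastp 0.23.4, assigned them with Salmon 1.10.3 to a GENCODE transcriptome of GRCm39 and used tximport to sum transcripts by gene. As deposited, the values are estimated counts per gene, held as whole numbers without normalization or filter. All libraries carry the same batch label. The members and gene lists were chosen with earlier results of these data known.

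Tests ran in edgeR 4.0.16 under R 4.3.3, with the filterByExpr filter by group, TMM scaling, 1 coefficient per group over all 19 libraries and the quasi-likelihood F test, with Benjamini-Hochberg adjustment over 13597 genes. A call needed both an adjusted p below 0.05 and a log2 fold change of 0.38 or more in size. CPM were scaled by TMM, and 1 CPM stands for 9.96 to 16.1 counts. Log2 CPM used a prior count of 2. Replicates are separate mice, and over 36 pairs of one group no copies were found. Named genes are the members, called genes of the pathway lists, and the 2 genes most correlated with each member among those of at least 5 CPM on average. Per pathway list and comparison up to 5 called genes are named, where 4 were planned. Bmal1, Clock and the other clock genes form the clock score. Gene positions are from GENCODE vM39 and promoters from RefSeq. Alternatives were RLE normalization, DESeq2 1.42.0, no filter and a stricter filter on low counts, robust dispersion, no minimum fold change, a block for the replicate number, fits of only the groups compared, thinning to equal depth, the library number and the clock score as covariates, both libraries with muscle or intestine genes left out, and each library left out in turn.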

Additional observations from a re-analysis of the deposited data

How the results depend on the processing

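Over 31 alternatives, 1851 of 1944 member values kept their call or stayed uncalled, 70 lost a call and 23 gained one. A lost call that also reversed was the Lpin1 change of MD + Veh against CD + Veh, which became 0.26 (adjusted p = 0.869) with the clock score as covariate. A further 40 values that passed the p threshold in neither fit changed sign. With that covariate 2 members were called for MD with vehicle, 2 in MD + PE against CD + Veh and 1 in MD + Veh against CD + PE. The term for library numbers above 45 left 0 called for PE on CD, 0 for PE on MD, 1 in MD + PE against CD + Veh (Gpam) and 1 in MD + Veh against CD + PE (Gpat4). Without both the muscle-gene and the intestine-gene library 3 were called for MD with vehicle, 0 for PE on MD and 1 in MD + Veh against CD + PE. With each library left out in turn, 3 to 6 members were called for MD with vehicle, 0 to 1 for PE on MD, 1 to 3 in MD + PE against CD + PE, 3 to 5 in MD + PE against CD + Veh, 1 to 3 in MD + Veh against CD + PE, 1 in every fit for PE on CD and 0 for the interaction. The cause of these changes was not tested. Of these alternatives, the genes of the pathway lists were read under DESeq2 alone, as counts of calls. Whether their calls remain under the others is not shown.

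The labels give no link between same-numbered mice of different groups. Over 27 such pairs the residuals of all genes correlated with a median r of 0.03, above 0.1 in 6 and at most 0.41. Of 19 libraries, 4 correlated best with their own number. A correlation over all genes cannot show whether a single gene follows the number, and Lpin1 rose with it in both PE groups. With the replicate number as a block, 2 members were called for PE on CD and 1 for the interaction, in both cases with Lpin1 as the addition (-1.59, adjusted p = 0.0071, and 2.13, adjusted p = 0.0388), and Lpin1 was called in MD + PE against CD + Veh (-1.80, adjusted p = 0.000506) while Gpat4 was just under the minimum size there (0.378). The block also called Gpat3 in MD + Veh against CD + Veh (1.55, adjusted p = 0.0341).

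Counts over all genes moved by more than 1.5 times as follows. For PE on CD 397 became 37 with the library term and 215 at the lowest with 1 library left out. For PE on MD 147 became 292 with DESeq2, 73 with only the groups compared, 33 with the library term, 58 without both libraries and 56 to 243 with 1 library left out. For MD with vehicle 1410 became 379 with the clock score. MD + PE against CD + PE went from 627 to 964 with no minimum fold change and to 987 at the highest with 1 library left out. MD + PE against CD + Veh went from 1982 to 930 with the library term and 1284 with the clock score. MD + Veh against CD + PE went from 704 to 136 with the library term, 1124 with no minimum fold change and 460 to 1153 with 1 library left out. The interaction went from 1 to 78 with DESeq2, 41 with the block, 54 with the library term, 0 with the clock score, 0 without both libraries and 0 to 3 with 1 library left out. Depth limits Gpat3 most, at 11 to 280 counts per library.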
